A study of Mus musculus with 6 samples.

Results

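The ligand myostatin (Mstn), the activin subunit Inhba, their antagonist Fst, the ligands Tgfb1, Tgfb2 and Tgfb3, the type II receptor Acvr2b and the BMP-responsive genes Id1, Id2 and Id3 were examined in cultured myoblasts of dystrophic mice. These 10 genes were chosen by name, and all 10 were found among the 47069 genes of the count table. RNA came from muscle stem cells of mdx mice, which carry a mutated dystrophin gene and model Duchenne muscular dystrophy, so that both groups lacked dystrophin. The methods describe cells sorted from muscle for the integrins Itga7 and Itgb1. They give a growth medium with serum and FGF2 and a low-serum medium for differentiation, and their RNA sequencing section names neither. The cells received vehicle, which the methods give as DMSO in aqueous buffer (3 libraries), or 10 μM PSB-KD107, a synthetic agonist of the receptor Gpr18 (3 libraries). The sample records give a treatment of 2 days and call the compound PSB-KD-1 in their titles, whereas the methods describe an overnight treatment. The methods describe male mdx mice on the C57BL/10 background for the experiments in live animals, and state no age for the mice that gave these cells. The comparison asked which transcripts differ once Gpr18 is engaged by the agonist.

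No gene of the 10 passed the test for a difference between PSB-KD107 and vehicle, which called 0 of all 14165 genes tested. Id2 and Inhba had the largest estimates, 1.84 and 1.75 times the vehicle level, and the other 8 lay between 0.834 and 1.16 times. Mstn varied 12.1-fold between the 6 libraries, with the highest values in library 1 of both groups. Tgfb3 and Fst were the most abundant transcripts of the group, whereas Inhba and Acvr2b were the least abundant.

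Myostatin and activins are secreted dimers that bind the type II receptors ACVR2A and ACVR2B and a type I receptor, which phosphorylates SMAD2 and SMAD3. Myostatin limits muscle mass, and follistatin, the product of Fst, holds myostatin and activins away from their receptors. The TGF-beta ligands use their own receptors but the same SMADs, are stored in the matrix in a latent form, and drive fibrosis in dystrophic muscle. BMPs act through SMAD1 and SMAD5 and raise the Id genes, whose proteins bind E proteins and so keep MyoD from DNA.

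The libraries held between 30917613 and 48756794 counts. At these depths 3 counts, taken as the floor for counting error alone, correspond to between 0.0596 and 0.0962 CPM (counts scaled to a common library size with TMM factors). The libraries of each group are numbered 1, 2 and 4 in the count table. Their numbers were not used as pairs in the test. Markers of myogenic cells were present in every library. Summed FPKM (CPM per kilobase of merged exons) over 10 myoblast markers ranged from 1803 to 2090 with vehicle and from 1744 to 1893 with PSB-KD107. Over 8 markers of differentiated muscle, such as Myh3 and Ckm, the sums were higher, from 8826 to 11602 with vehicle and from 7685 to 10479 with PSB-KD107, although the labels call the cells satellite cells. Of these 18 markers, Pax7, Myh3, Mymk and Mymx were lower with PSB-KD107 at an unadjusted p under 0.05 (2.93% of all genes tested were) and were called by DESeq2 (3.4% of all genes), and 0 were higher (6.47%). The summed FPKM was at most 0.685 over 6 endothelial markers, with Emcn at 0 in every library, and at most 3.61 over 7 macrophage markers, with Adgre1 and Fcgr1 at 0. Over 8 fibro-adipogenic markers it ranged from 0.393 to 1.54 with vehicle and from 0.604 to 7.26 with PSB-KD107, the highest being PSB-KD107 library 4, with Lum at 0 throughout. In that library Ly6a had 8.36 CPM, whereas Dcn was at its lowest, 1 count. In bulk RNA, fewer cells of a type and less RNA per cell cannot be told apart.

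Reference promoters were found for 7 of the 10 genes in the RefSeq table (GRCm38.p6), and the 250 bases before the annotated start were searched on both strands. The motifs were the SMAD box CAGACA, the GC-rich BMP element GGCGCC, the cAMP element TGACGTCA, the ATF4-type element TGATGNAA and the E-box CANNTG, to which MyoD and E proteins bind. CAGACA was found in 2 of the 7 (17.1% of all 32817 promoters), GGCGCC in 1 (9.59%), CANNTG in 3 (66.2%), and TGACGTCA and TGATGNAA in 0 (1.55% and 3.45%). The GGCGCC match lay in the Id2 window. For Id2, Id3 and Acvr2b the RefSeq start lies 1048, 325 and 60 bases downstream of the GENCODE start used for the gene positions here. Their windows thus lie wholly (Id2, Id3) or partly (Acvr2b) within those positions. The promoters of Mstn (chr1:53061390-53061639, plus strand) and Tgfb2 (chr1:186705990-186706239, minus strand) are shown because each holds both a CAGACA and a CANNTG match, which are the letters in capitals. In Mstn, whose level varied most between libraries, the SMAD box starts at -120 from the annotated start and 4 E-boxes start at -229, -174, -52 and -19. In Tgfb2 the SMAD box starts at -204 and a single E-box at -51. A match is a description of the letters and was not tested for binding.
Mstn promoter: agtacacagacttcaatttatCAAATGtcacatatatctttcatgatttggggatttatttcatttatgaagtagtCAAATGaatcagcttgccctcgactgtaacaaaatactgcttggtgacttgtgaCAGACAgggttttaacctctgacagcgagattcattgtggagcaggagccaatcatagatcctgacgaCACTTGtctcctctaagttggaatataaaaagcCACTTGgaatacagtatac
Tgfb2 promoter: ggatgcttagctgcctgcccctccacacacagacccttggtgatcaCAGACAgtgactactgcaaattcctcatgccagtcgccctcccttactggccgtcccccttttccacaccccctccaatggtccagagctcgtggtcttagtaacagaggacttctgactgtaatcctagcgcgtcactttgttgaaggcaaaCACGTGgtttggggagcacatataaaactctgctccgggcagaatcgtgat

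With vehicle, the levels per length spanned 3 tiers. Tgfb3 had the highest FPKM, 97.1 ± 18.9 (mean ± SD, n = 3), followed by Fst with 36.7 ± 4.31, and the libraries of these genes overlapped neither each other nor those of the next gene. A middle tier held Id1 (20.2 ± 6.49 FPKM), Id3 (14.2 ± 2.98), Mstn (7.44 ± 8.76), Tgfb1 (5.33 ± 0.778), Tgfb2 (5.22 ± 2.38) and Id2 (4.84 ± 2.68). Within this tier each neighbor overlapped the next, but the lowest libraries of Id1 (12.8 FPKM) and Id3 (10.8) lay above the highest of Tgfb1 (6.21), Tgfb2 (7.83) and Id2 (7.58). Acvr2b had 0.407 ± 0.122 FPKM and Inhba 0.0772 ± 0.0347, each below every library of the gene before it. The ranking of a gene rests on its merged exon length, from 1160 bases for Id1 to 6390 bases for Inhba.

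Among the ligands of the activin receptors, Mstn (ENSMUSG00000026100, chromosome 1 from 53061640 to 53068079 in GRCm38) had 47.3, 9.11 and 3.91 CPM in vehicle libraries 1, 2 and 4, and 43.8, 6.32 and 19.7 CPM in the PSB-KD107 libraries with these numbers. Library 1 was the highest of its group in both conditions, and the groups overlapped. The log2 fold change (PSB-KD107 minus vehicle) was 0.21, with a 95% interval from -2.33 to 2.74 (adjusted p = 0.962 by edgeR's quasi-likelihood F test). This interval spans from 0.199 to 6.70 times the vehicle level, the widest of the 10 genes. The sign of the estimate depended on single libraries. It was 1.84 on the log2 scale without vehicle library 1 (adjusted p = 0.438 by edgeR's quasi-likelihood F test), -0.65 without PSB-KD107 library 1, -0.15 without vehicle library 2 and -0.28 without vehicle library 4. Without both libraries numbered 1 it was 1.00. The within-group SD of log2 CPM for Mstn, 1.62, was larger than that of 97.9% of the 14165 genes tested.

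Inhba (ENSMUSG00000041324, chromosome 13 from 16011851 to 16031621) encodes the subunit that dimerizes to activin A. It had only 29, 15 and 10 counts with vehicle and 54, 28 and 23 counts with PSB-KD107, corresponding to 0.740, 0.430 and 0.310 CPM and to 1.07, 0.898 and 0.633 CPM. Each treated library was above the vehicle library with the same number, but PSB-KD107 library 4 was below vehicle library 1. The log2 fold change was 0.81 (standard error 0.43, 95% interval -0.23 to 1.85). Inhba had the smallest p-value of the 10 genes, 0.107 unadjusted and 0.626 adjusted by edgeR's quasi-likelihood F test, and 0.676 adjusted in DESeq2. Without vehicle library 1 the log2 fold change was 1.22 (adjusted p = 0.414 by edgeR's quasi-likelihood F test). The groups then did not overlap, as vehicle library 1 was the only vehicle library above a treated one. The share of all genes without overlap in that setting was not computed. The genes whose log2 CPM followed Inhba most closely over the 6 libraries were 4921504A21Rik, Magi2 and Ocel1, with Pearson correlations of 0.994, 0.993 and 0.990. These were picked as the highest among all genes tested, and 4921504A21Rik itself had between 0 and 26 counts.

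Fst (ENSMUSG00000021765, chromosome 13 from 114452290 to 114458951) had 148.0, 187.5 and 170.4 CPM with vehicle and 56.2, 152.5 and 213.4 CPM with PSB-KD107. The treated libraries lay on both sides of the vehicle libraries, with number 1 the lowest and number 4 the highest of all 6. The log2 fold change was -0.26 (95% interval -1.35 to 0.83, adjusted p = 0.881 by edgeR's quasi-likelihood F test). To set the antagonist against 1 of its ligands within each library, the ratio of Fst to Inhba was taken per length. This ratio rests on the low counts of Inhba, between 10 and 54 in a library. It leaves out Mstn, which had 7.44 FPKM with vehicle against 0.0772 FPKM for Inhba. The ratio of Fst to Inhba was 278.5-fold, 607.6-fold and 764.9-fold with vehicle, and 72.9-fold, 236.4-fold and 469.7-fold with PSB-KD107. Each treated library was below the vehicle library with its number. On the log2 scale the ratio was 8.98 ± 0.76 with vehicle and 7.65 ± 1.36 with PSB-KD107 (mean ± SD, n = 3), a difference of -1.33, but the groups overlapped (two-sided exact permutation test, p = 0.2, where 3 libraries against 3 cannot give less than 0.1). Without PSB-KD107 library 1 the difference was -0.60, and without PSB-KD107 library 4 it was -1.95.

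Of the receptors, Acvr2b (ENSMUSG00000061393, chromosome 9 from 119402118 to 119434995), which binds myostatin and activins, had 2.14, 1.23 and 1.43 CPM with vehicle and 1.85, 1.67 and 1.10 CPM with PSB-KD107. The highest value was in a vehicle library and the lowest in a PSB-KD107 library, and the groups overlapped. The log2 fold change was -0.06 (95% interval -0.91 to 0.79, adjusted p = 0.970 by edgeR's quasi-likelihood F test). Its paralog Acvr2a, which binds the same ligands, had 21.2 ± 4.05 FPKM with vehicle against 0.407 ± 0.122 FPKM for Acvr2b (mean ± SD, n = 3). Acvr2a had a log2 fold change of -0.39 (95% interval -0.95 to 0.17), and the type I receptor Acvr1b one of 0.48 (95% interval -0.24 to 1.20).

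**Figure D1:**
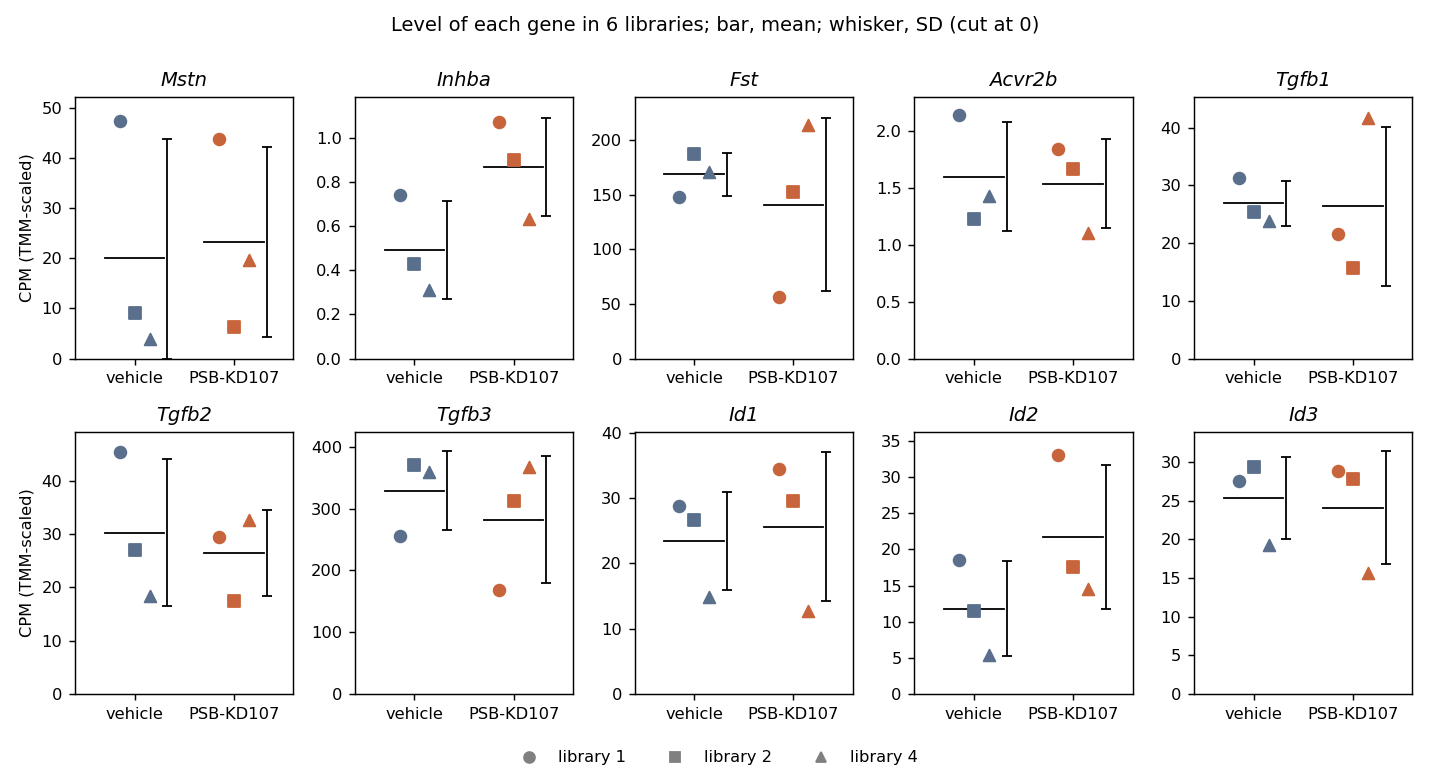
Level of each of the 10 genes in CPM (vertical axes, each from 0) in 3 vehicle libraries (blue) and 3 PSB-KD107 libraries (orange). Symbols give the library number, horizontal bars the mean and whiskers the SD, cut at 0. The groups overlapped for every gene shown (they did not overlap for 15.8% of all genes tested), and library 1 held the highest Mstn of both groups.

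Among the TGF-beta ligands, Tgfb3 (ENSMUSG00000021253, chromosome 12 from 86056745 to 86079041) was the main transcript in every library. It had 255.2, 370.8 and 359.9 CPM with vehicle and 167.6, 312.1 and 366.7 CPM with PSB-KD107. Library 1 was the lowest of both groups, and the log2 fold change was -0.22 (95% interval -0.97 to 0.53, adjusted p = 0.853 by edgeR's quasi-likelihood F test). The gene Ttll5 overlaps Tgfb3 on the opposite strand, and the strand setting of the counting was not given in the sources used here. Ttll5 was listed with between 784 and 1439 counts, against between 8434 and 13328 for Tgfb3.

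Tgfb1 (ENSMUSG00000002603, chromosome 7 from 25687002 to 25705077), the isoform most often linked to fibrosis, had 31.3, 25.5 and 23.9 CPM with vehicle and 21.6, 15.6 and 41.8 CPM with PSB-KD107. Treated libraries 1 and 2 were below all vehicle libraries and number 4 was above them. Its log2 fold change was -0.03 (95% interval -0.92 to 0.86), and without PSB-KD107 library 4 it was -0.53. Tgfb2 (ENSMUSG00000039239, chromosome 1 from 186622792 to 186705989) had 45.4, 26.9 and 18.4 CPM with vehicle and 29.5, 17.4 and 32.5 CPM with PSB-KD107, a log2 fold change of -0.19 (95% interval -1.13 to 0.75). The pairs numbered 1 and 2 were lower with PSB-KD107 and the pair numbered 4 was higher for both genes.

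The mean shares of the TGF-beta ligands differed between the groups by less than the SD within either group. Per length, Tgfb3 took 89.7% ± 4.75 of the summed FPKM of Tgfb1, Tgfb2 and Tgfb3 with vehicle and 88.8% ± 4.87 with PSB-KD107 (mean ± SD over 3 libraries; exact permutation test, two-sided, p = 0.9). Tgfb1 took 5.11% ± 1.59 and 5.74% ± 2.25 (p = 0.9, exact), and Tgfb2 5.14% ± 3.17 and 5.43% ± 2.89 (p = 0.8, exact). Library 1 had the lowest share of Tgfb3 in both groups, 84.3% and 84.1%. The summed FPKM itself was 89.5, 119.3 and 114.3 with vehicle and 58.9, 98.4 and 122.3 with PSB-KD107.

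**Figure D2:**
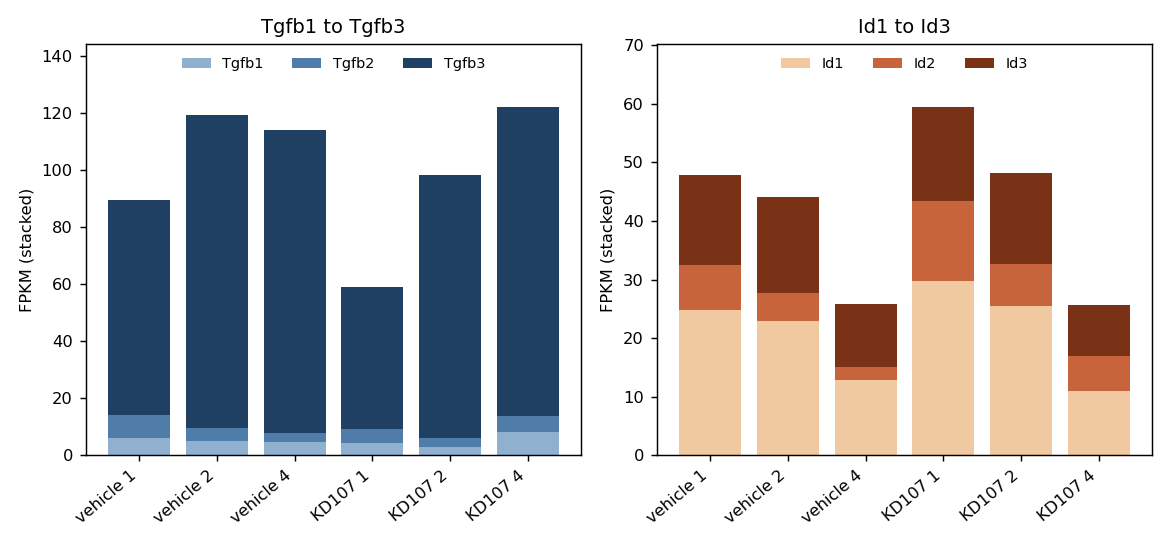
Stacked FPKM (vertical axes) of Tgfb1, Tgfb2 and Tgfb3 (left) and of Id1, Id2 and Id3 (right) in each of the 6 libraries. Tgfb3 made up between 84.1% and 93.8% of the TGF-beta ligands in each library, and the Id sum was lowest in the libraries numbered 4.

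Of the Id genes, Id2 (ENSMUSG00000020644, chromosome 12 from 25093799 to 25097140) had 18.5, 11.5 and 5.40 CPM with vehicle and 33.1, 17.5 and 14.5 CPM with PSB-KD107. Each treated library was above the vehicle library with its number, by 0.84, 0.60 and 1.41 on the log2 scale, yet PSB-KD107 libraries 2 and 4 did not reach vehicle library 1. The log2 fold change was 0.88 (standard error 0.51, 95% interval -0.37 to 2.13, adjusted p = 0.658 by edgeR's quasi-likelihood F test and 0.542 in DESeq2). Without vehicle library 1 it was 1.36, and without PSB-KD107 library 1 it was 0.42. The groups did not overlap without vehicle library 1, the only vehicle library above a treated one. The share of all genes without overlap in that setting was not computed. Id2 is induced by BMPs but also marks undifferentiated progenitors in many tissues.

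Id1 (ENSMUSG00000042745, chromosome 2 from 152736251 to 152737410) had 28.9, 26.7 and 14.9 CPM with vehicle and 34.5, 29.6 and 12.7 CPM with PSB-KD107. Id3 (ENSMUSG00000007872, chromosome 4 from 136143497 to 136145755) had 27.6, 29.3 and 19.3 CPM with vehicle and 28.9, 27.8 and 15.7 CPM with PSB-KD107. For both genes the libraries numbered 4 were the lowest of their group. The log2 fold changes were 0.13 for Id1 (95% interval -0.90 to 1.16) and -0.07 for Id3 (95% interval -0.76 to 0.62). The interval of Id3 excludes a rise beyond 1.53 times and a fall below 0.589 times the vehicle level.

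Within the Id family, Id2 took 11.7% ± 3.73 of the summed FPKM with vehicle and 20.3% ± 4.68 with PSB-KD107 (mean ± SD, n = 3). The share was 15.8%, 10.7% and 8.58% with vehicle and 22.8%, 14.9% and 23.2% with PSB-KD107, so that each pair of equal number moved the same way while PSB-KD107 library 2 stayed below vehicle library 1. The difference was 8.61 percentage points and ranged from 7.05 to 11.3 with each library left out in turn (two-sided exact permutation test, p = 0.2, in a design that cannot reach 0.05). The share of Id3 was 37.0% ± 4.82 and 31.1% ± 3.57 (p = 0.3, exact), and that of Id1 was 51.3% ± 1.42 and 48.5% ± 5.20 (p = 0.7, exact). The 7 ratios and shares tested form one family, in which Benjamini-Hochberg adjustment of the exact p-values gave 0.7 or more for each.

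**Figure D3:**
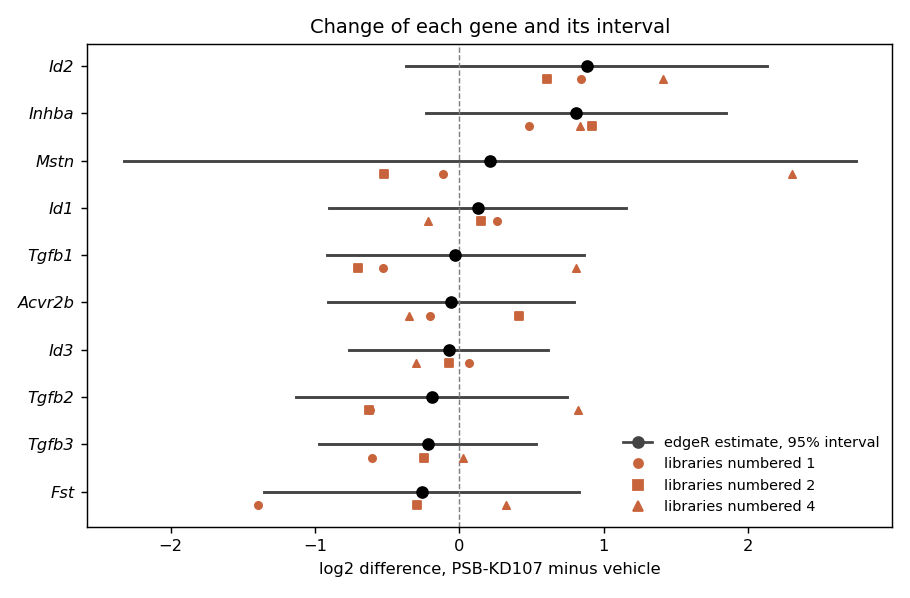
Log2 difference between PSB-KD107 and vehicle (horizontal axis) for the 10 genes, with edgeR's estimate (black) and its 95% interval, and the differences between libraries of equal number (orange). Every interval includes 0, and the pairs fall on both sides of 0 for all genes but Id2 and Inhba.

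Over the 10 genes, 4 estimates were above and 6 below 0, with a median log2 fold change of -0.04, beside -0.0007 over all 14165 genes tested. By edgeR's quasi-likelihood F test 0 of the 10 had an adjusted p under 0.05 (0% of all genes tested). At an unadjusted p under 0.05 there were 0 of 10 (9.4% of all genes), and by DESeq2 after adjustment 0 of 10 (3.4% of all genes, or 482). The groups did not overlap for 0 of 10 (15.8% of all genes). The spread between libraries was wide for these genes. Their within-group SD of log2 CPM ranged from 0.38 for Acvr2b to 1.62 for Mstn, larger than in between 64.9% and 97.9% of the genes tested.

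The wider pathway was followed with 10 lists of ligands, antagonists, receptors, SMADs and target genes. In these lists and the 10 members together, counted as list genes below, 109 of 136 genes could be tested. By edgeR's quasi-likelihood F test 0 of the 109 had an adjusted p under 0.05 (smallest 0.228), and at an unadjusted p under 0.05 there were 3 higher (6.47% of all genes tested were higher) and 6 lower (2.93%). DESeq2 called 5 of them (3.4% of all genes), and the groups did not overlap for 11 (15.8%). The median log2 fold change over the 109 genes was -0.06, and with each library left out in turn it ranged from -0.21 (without PSB-KD107 library 4) to 0.06 (without vehicle library 1).

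Of 20 SMADs and their regulators, 11 were above and 9 below 0, with a median log2 fold change of 0.10. Smurf1, a ubiquitin ligase that marks BMP SMADs for breakdown, had 65.3 ± 4.03 CPM with vehicle and 88.8 ± 2.00 CPM with PSB-KD107 (mean ± SD, n = 3). The log2 difference was 0.44 with a standard error of 0.09 (adjusted p = 0.228 by edgeR's quasi-likelihood F test and 3.4e-04 in DESeq2). Tgif2, a corepressor of SMAD2 and SMAD3, had 24.9 ± 3.45 and 15.4 ± 1.05 CPM (mean ± SD, n = 3). The log2 difference was -0.69 with a standard error of 0.15 (adjusted p = 0.247 by edgeR's quasi-likelihood F test and 0.00195 in DESeq2). For either gene the libraries of both groups stood clear of each other. Smad3, a transducer of myostatin, activin and TGF-beta, had a log2 fold change of -0.54 (95% interval -1.08 to -0.01, adjusted p = 0.525 by edgeR's quasi-likelihood F test), and its groups overlapped.

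On the extracellular side, the list of activin and myostatin ligands also held Inha, which encodes the inhibin alpha chain and is not such a ligand. Of the 5 tested genes of this list 4 were above 0 (median log2 fold change 0.32), Inha being among them at 0.81 (95% interval -0.63 to 2.25). Gdf11, a close relative of myostatin, was at -0.19 (95% interval -0.54 to 0.17). Of 5 tested antagonists 3 were above 0 (median 0.03), with Fstl3 at 0.56 and Wfikkn2 at -0.20. Of 16 genes of latency and activation 7 were above 0 (median -0.11). Emilin1, which restrains TGF-beta processing, was at -1.10 (95% interval -2.21 to 0.01) and the integrin Itgb8 at 0.48. The fibrillin Fbn2 was at 1.38 (95% interval -0.23 to 3.00), on between 6 and 40 counts in a library. None of these genes had an unadjusted p under 0.05.

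Of the BMP branch, 4 ligands could be tested and all 4 were below 0 (median log2 fold change -0.45), none at an unadjusted p under 0.05. Gdf6 was at -0.70, Bmp2 at -0.20 and Bmp6 at -0.87 (95% interval -2.37 to 0.64), the last on between 6 and 24 counts in a library. Of 12 BMP antagonists and co-receptors 9 were below 0 (median -0.43). Twsg1, which binds BMPs outside the cell, had 64.1 ± 1.84 CPM with vehicle and 48.4 ± 3.96 CPM with PSB-KD107 (mean ± SD, n = 3). The log2 difference was -0.40 with a standard error of 0.10 (adjusted p = 0.285 by edgeR's quasi-likelihood F test and 0.0101 in DESeq2). The co-receptors Rgma and Rgmb were at -0.79 and -0.86 (unadjusted p = 0.0681 and 0.0542 by edgeR's quasi-likelihood F test). Of 13 receptors 5 were above 0 (median -0.19), and the co-receptor Tgfbr3 was at -1.37 (95% interval -3.21 to 0.47).

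Target genes of SMAD1 and SMAD5, which include Id1, Id2 and Id3, were above 0 in 8 of 13 cases (median log2 fold change 0.28). The Notch and BMP target Hey1 had 12.2 ± 2.36 CPM with vehicle and 6.87 ± 2.08 CPM with PSB-KD107 (mean ± SD, n = 3). Its log2 difference was -0.82 (adjusted p = 0.439 by edgeR's quasi-likelihood F test). Dlx3 and Smad9, both low in abundance, were at 1.19 and 0.91. The list of partners of the ID proteins comprised E proteins, myogenic factors and also the Id gene Id4. Of its 8 genes 3 were above 0 (median -0.18), Id4 being among them at 0.49 (95% interval -0.22 to 1.21). Myog, which drives terminal differentiation, was lower in all PSB-KD107 libraries, at -0.49 (95% interval -0.92 to -0.06, unadjusted p = 0.0309 and adjusted p = 0.469 by edgeR's quasi-likelihood F test). Myod1 was at -0.59 (95% interval -1.43 to 0.26) and the E protein gene Tcf3 at -0.24 (95% interval -0.52 to 0.04).

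**Figure D4:**
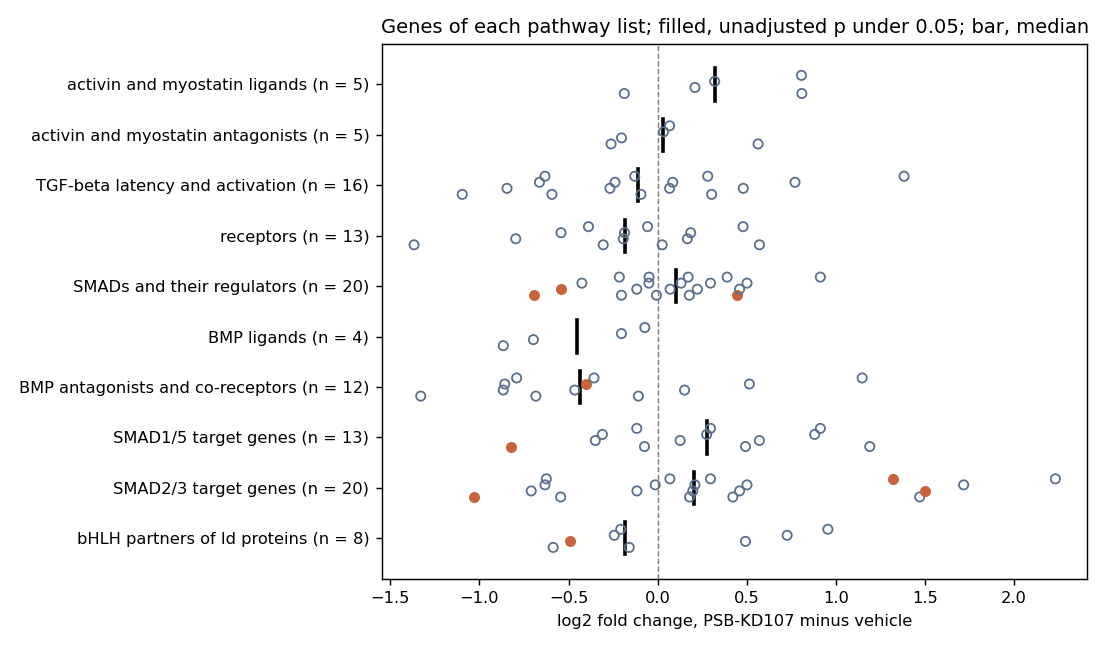
Log2 fold change (horizontal axis) of every tested gene of 10 pathway lists (rows, with the number tested). Filled points had an unadjusted p under 0.05 by edgeR's quasi-likelihood F test, and black bars are medians, which ranged from -0.45 for BMP ligands to 0.32 for activin and myostatin ligands.

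Target genes of SMAD2 and SMAD3 were above 0 in 13 of 20 cases (median log2 fold change 0.20). Col1a2, a chain of collagen I, had 3.98 ± 0.114 CPM with vehicle and 1.95 ± 0.224 CPM with PSB-KD107 (mean ± SD, n = 3). The log2 difference was -1.03 with a standard error of 0.22 (adjusted p = 0.243 by edgeR's quasi-likelihood F test and 8.8e-04 in DESeq2). Cdkn2b, a cell cycle inhibitor, had 11.2 ± 3.79 and 28.1 ± 11.5 CPM (mean ± SD, n = 3). The log2 difference was 1.32 with a standard error of 0.37 (adjusted p = 0.361 by edgeR's quasi-likelihood F test and 0.0304 in DESeq2). Sphk1, which makes sphingosine 1-phosphate, was at 1.50 (95% interval 0.04 to 2.97), with overlapping groups and an adjusted p of 0.523 by edgeR's quasi-likelihood F test and 0.222 in DESeq2.

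PSB-KD107 library 4 was often the highest library in this list, and it was so in some other lists too. It had the highest CPM of the 6 libraries for 13 of the 20 genes, beside 25.7% of all genes tested and 40 of the 109 list genes. It was highest for 8 of 16 genes of latency and activation and 8 of 20 SMADs and regulators, which share genes with this list. For BMP antagonists and co-receptors it was highest in 2 of 12, and for partners of ID proteins in 1 of 8. PSB-KD107 library 4 also had the highest Tgfb1 and Fst. Pmepa1, a SMAD-induced inhibitor of the pathway, had 172.0, 128.9 and 127.0 CPM with vehicle and 124.3, 117.3 and 364.3 CPM with PSB-KD107. Skil, a SMAD corepressor, had between 64.4 and 72.4 CPM in the other 5 libraries and 152.7 CPM in PSB-KD107 library 4. These genes were chosen for display after their values were seen. Without that library the median log2 fold change of the list was -0.22. The fibro-adipogenic marker Ly6a, which encodes the Sca-1 antigen used to exclude cells in the sort, had 8.36 CPM in this library and at most 1.29 CPM in the others. The other fibro-adipogenic markers did not follow Ly6a as a set. Pdgfra was also highest in this library (1.46 CPM). Dcn was lowest there (1 count, against between 18 and 63), and Cd34 had 0.770 CPM against 2.88 CPM in PSB-KD107 library 1. The rest had at most 3 counts in any library. The part of Ly6a in these values was not tested.

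**Figure D5:**
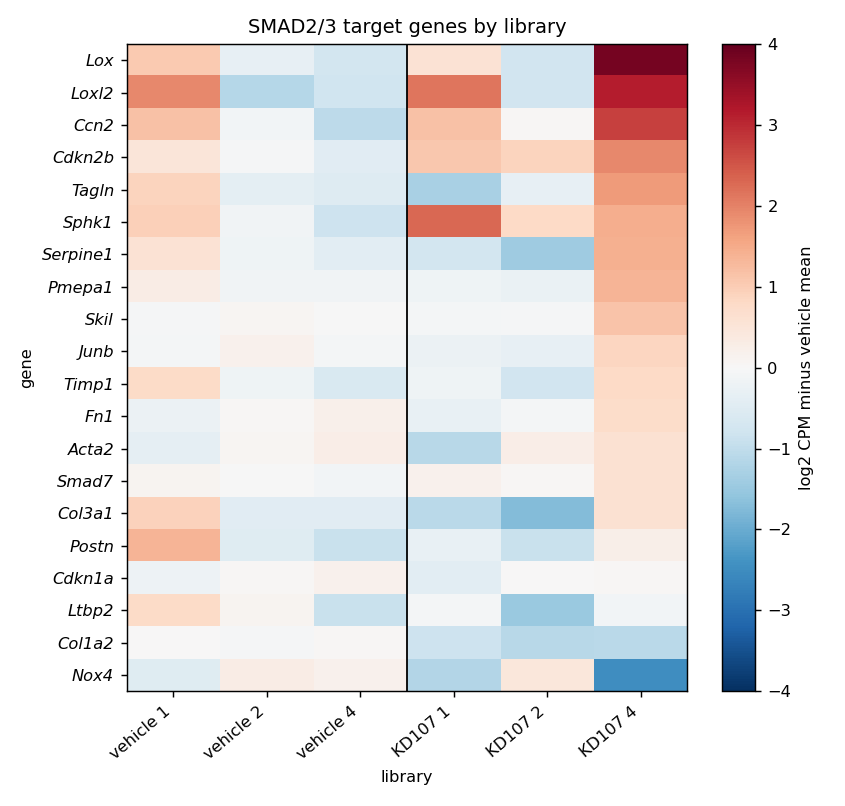
Log2 CPM minus the vehicle mean (color, from -4 to 4) for 20 target genes of SMAD2 and SMAD3 (rows, ordered by PSB-KD107 library 4) in the 6 libraries (columns). PSB-KD107 library 4 was the highest library for 13 of the 20 genes, beside 40 of the 109 list genes and 25.7% of all genes tested.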

How the data were processed

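RNA-seq of mdx myoblasts was deposited by the authors as a table of raw counts per gene, not normalized, for 3 vehicle and 3 PSB-KD107 libraries. Poly(A)-selected, paired-end libraries had been mapped by STAR against mm10. The counting program, its annotation and strand setting are not given in the sources used here, so that overlapping genes can share counts. Positions and merged exon lengths came from GENCODE M21 (GRCm38), promoters from RefSeq.

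Genes were filtered with filterByExpr (14165 of 47069 kept), scaled with TMM and tested with edgeR 4.0.16 (glmQLFit, glmQLFTest) in R 4.3.3. Adjustment was by Benjamini-Hochberg over all genes tested, at 0.05. Intervals are 95% and use the degrees of freedom of that fit. Differences between single libraries used an offset of 0.1 CPM. DESeq2 1.42.0 was run on the same genes, and limma 3.58.1 (voom) as an alternative. The fit was tested on simulated counts. The methods mention myoblasts of 3 different mice but do not tie them to library numbers, so p-values measure the spread between these libraries. How much of that spread lies between mice and how much is technical cannot be told.

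The members and lists were chosen with earlier results of these data known. Named were all 10 members, the 3 genes of each list with the smallest unadjusted p, every list gene called after adjustment by edgeR or DESeq2, and the 3 genes correlating best with the member of smallest p. Pax7, Myh3, Mymk, Mymx, Ly6a, Pdgfra, Dcn, Cd34, Pmepa1 and Skil were named after their values were seen. Of 137 pathway genes in the lists and members together, 136 were found. Columns numbered 1 and 2 match sample records, and those numbered 4 were assigned by group, since the records number 1, 2 and 3. Deviations from the group means correlated at 0.63, 0.52 and -0.13 between vehicle and PSB-KD107 libraries of equal number 1, 2 and 4. Libraries of different number gave between -0.70 and 0.64 (mean -0.18). As the deviations sum to 0 within each group, this mean is tied to the values for equal numbers and is no separate comparison. These correlations leave the pairing unsettled, and the numbers were not taken as pairs in the test. Alternatives were RLE and upper quartile factors, no filter, an FPKM filter, DESeq2, limma-voom, replicate blocks and each library left out. The 4 libraries without the block, and both libraries numbered 1 left out, were chosen after seeing the data.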

Additional observations from a re-analysis of the deposited data

How the results depend on the processing

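Among the 10 members, Id2 and Inhba kept their direction in all alternatives that tested them (16 and 15, from 0.42 to 1.36 and from 0.57 to 1.22), and scaling by RLE or upper quartile factors turned no member. The number of all genes called was 0 in edgeR, 8 with no filter on low counts, 482 with DESeq2, 185 with DESeq2 at a 2-fold change and the FPKM filter, and 0 with limma-voom. As the check above leaves the pairing unsettled, the replicate block serves as an alternative only. Over all 6 libraries the block called 0 genes and 0 members. It gave 23 of the 109 list genes at an unadjusted p under 0.05 in place of 9, beside 1726 of all 14165 genes in place of 1331. On the 4 libraries numbered 1 and 2 the replicate block, with 1 residual degree of freedom, called 2456 genes and 5 members. The log2 fold changes of these members were -0.84 for Fst, -0.62 for Tgfb1, -0.63 for Tgfb2, -0.43 for Tgfb3 and 0.73 for Id2. The block there gave 62 list genes at an unadjusted p under 0.05, beside 4410 of all genes, and turned Mstn (-0.27) and Acvr2b (0.0699). These 4 libraries without the block called 0, with Mstn at -0.17 and Acvr2b at 0.0580. They gave 15 list genes at an unadjusted p under 0.05, beside 924 of all genes, and 3 members without overlap. In all fits on fewer libraries the filter was applied anew and the numbers tested are not given. Their counts of list genes and of all genes are therefore not shares. Without both libraries numbered 1, Fst was at 0.0263, Tgfb1 at 0.22, Tgfb2 at 0.14 and Acvr2b at 0.0464, and 2 members did not overlap. Groups of fewer libraries stand apart more easily. The share of all genes without overlap was not computed for the settings that leave libraries out.

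With each library left out in turn, 0 members were called. The log2 fold change ranged from -0.65 to 1.84 for Mstn, -0.69 to 0.11 for Fst, -0.53 to 0.23 for Tgfb1, -0.45 to 0.22 for Tgfb2, -0.46 to 0.0331 for Tgfb3, -0.23 to 0.21 for Acvr2b, -0.17 to 0.45 for Id1 and -0.24 to 0.16 for Id3. Between 0 and 3 members did not overlap, the 3 being without PSB-KD107 library 4. Between 5 and 20 list genes had an unadjusted p under 0.05, beside between 677 and 1783 of all genes. The difference in share, in percentage points, ranged from -4.87 to 0.175 for Id1, -0.145 to 1.92 for Tgfb1, -1.32 to 2.09 for Tgfb2, -3.64 to 1.47 for Tgfb3 and -8.34 to -3.52 for Id3, and the log2 ratio of Fst to Inhba from -1.95 to -0.60. List medians ranged from -0.0372 to 1.22 for activin and myostatin ligands, -0.0508 to 0.13 for SMADs, -0.63 to -0.38 for BMP antagonists, -0.82 to -0.36 for BMP ligands, -0.29 to 0.27 for activin antagonists, -0.55 to 0.07 for latency and activation, -0.19 to 0.01 for receptors, 0.08 to 0.34 for SMAD1/5 targets, -0.22 to 0.43 for SMAD2/3 targets and -0.26 to -0.09 for partners of ID proteins. The SMAD median was -0.0241 on the 4 libraries with the block and -0.0239 without it, that of BMP antagonists -0.55 with limma-voom and -0.58 with the block on 6 libraries, that of BMP ligands 0.57 with no filter, which adds genes near 0 counts, and that of SMAD1/5 targets -0.0799 with the FPKM filter. Other causes of these shifts were not tested. Inhba and Acvr2b fall under the FPKM filter, and Inhba's 10 to 54 counts limit its precision.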
